A study of Homo sapiens with 25 samples.

Results

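The mitochondrial complex I mRNAs are the 7 ND messages that the mitochondrial genome itself encodes: MT-ND1, MT-ND2, MT-ND3, MT-ND4L, MT-ND4, MT-ND5 and MT-ND6. Every gene of that name on chrM was taken, which gave 7 of the 63086 genes in the count files, 7 of the 20044 protein-coding genes and 7 of the 13 mRNAs of chrM. All 7 passed the filter on low values and were among the 8734 genes that entered the fit. The group was chosen by its measured shares of counts and CPM by line and treatment, so these values are given as a description, with no test.

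The measurement was RNA immunoprecipitation sequencing (RIP-seq), in which RNA that comes down with a captured protein is sequenced. IGF2BP1 carrying the fluorescent tag mCherry was pulled from lysates of HCT116 colon carcinoma cells with RFP-Trap beads. There were 25 libraries. Each of 4 lines carried mCherry-IGF2BP1 as WT, S181E, Y396E or RQ, and all 4 also carried IGF2BP2 KO, IGF2BP3 KO and Tet-OsTIR1-PURO. S181E and Y396E are phosphomimetic exchanges in the disordered linkers of IGF2BP1, and in RQ arginines of the RGG/RG motif of a linker were changed to glutamine. Each line was treated with PBS (control) or with sodium arsenite, which causes oxidative stress, at 500 µM for 2 h. There were 3 libraries per group and 2 for RQ in arsenite. A further 2 libraries came from parental HCT116 cells, which have no mCherry fusion, 1 after PBS and 1 after arsenite. The paper describes these cells as nonengineered. In a fold over them the fusion and the knockouts of the lines cannot be told apart. The fusion was expressed from a lentiviral vector with an hPGK promoter, and the lines were populations sorted in a narrow gate of mCherry fluorescence. Dishes within a group were plated and grown independently.

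Complex I (NADH:ubiquinone oxidoreductase) is the entry point of electrons from NADH into the respiratory chain. Its membrane arm is built around the ND proteins, and the rest of the complex comes from nuclear genes whose proteins are imported. Both strands of the mitochondrial genome are transcribed as long precursors that are cut into single messages, and all ND genes but MT-ND6 lie on the same strand. IGF2BP1 is known mainly as a cytoplasmic protein that binds mRNA through its KH domains, with CAU as the core of the motif described for its family.

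The sequences below show the first 60 bases of each member, to let the reader see how differently the motif core is spread over these messages. They run 5′ to 3′ on the strand of the message, were read from the hg38 genome and are in lower case, with every CAT (CAU in the RNA) in capitals. The stretch of MT-ND1 is chrM:3307-3366, that of MT-ND2 chrM:4470-4529, MT-ND3 chrM:10059-10118, MT-ND4L chrM:10470-10529, MT-ND4 chrM:10760-10819 and MT-ND5 chrM:12337-12396, all on the plus strand. The stretch of MT-ND6 is chrM:14614-14673 on the minus strand.
MT-ND1: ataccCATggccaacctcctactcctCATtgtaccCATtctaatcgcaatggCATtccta
MT-ND2: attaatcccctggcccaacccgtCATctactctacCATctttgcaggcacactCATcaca
MT-ND3: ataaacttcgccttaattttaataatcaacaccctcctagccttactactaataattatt
MT-ND4L: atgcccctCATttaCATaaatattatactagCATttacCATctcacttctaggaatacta
MT-ND4: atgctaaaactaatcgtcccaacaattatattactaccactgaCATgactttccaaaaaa
MT-ND5: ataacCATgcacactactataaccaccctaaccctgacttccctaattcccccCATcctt
MT-ND6: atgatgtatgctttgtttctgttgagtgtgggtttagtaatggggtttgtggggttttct

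Over the whole gene, MT-ND6 held 2 CAT in 525 bases, or 3.81 per kb, while the other members held between 20.2 per kb (MT-ND3, 7 in 346 bases) and 33.7 per kb (MT-ND4L, 10 in 297 bases). MT-ND1 had 29 in 956 bases, MT-ND2 34 in 1042, MT-ND4 38 in 1378 and MT-ND5 53 in 1812. The remaining mRNAs of chrM held 25.0 to 30.7 per kb, MT-RNR1 11.5 and MT-RNR2 13.5. The longest transcript of each of 8564 nuclear genes that entered the fit served as background. Their median was 15.4 per kb, with 9.07 to 20.3 between the 5th and 95th percentile. Of these genes 94.5% lay below MT-ND3 and 0.0817% below MT-ND6. MT-ND6 was also set apart by its base composition, with 35.6% G against 9.50 to 12.1% in the other members. In windows of 60 bases laid end to end, CAT occurred in 58.8% of the windows of these nuclear transcripts. It occurred in 13 of 15 of MT-ND1, 16 of 17 of MT-ND2, 4 of 5 of MT-ND3 and 4 of 4 of MT-ND4L. It occurred in 18 of 22 of MT-ND4, 23 of 30 of MT-ND5 and 2 of 8 of MT-ND6. The search covered the message strand alone, and a match describes letters, not a site of binding.

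MT-ND4L and MT-ND4 overlap in the genome and are carried on a single message. Their 7 shared bases, chrM:10760-10766, are in capitals below, with 20 bases on either side (chrM:10740-10786, plus strand, hg38). Reads that fell on both genes were left out of the counts by default, and a read reaching across from MT-ND4L into MT-ND4 belongs to both.
ND4L and ND4 overlap: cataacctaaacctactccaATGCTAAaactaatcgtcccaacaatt

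The mCherry libraries held 22246381 to 60273548 counts in total, the parental control library 1238013 and the parental arsenite library 18942497. IGF2BP1 stood at 37.2 to 123 CPM in the mCherry libraries and had 0 counts in both parental libraries. The paper states that HCT116 cells lack expression of IGF2BP1. Markers of the labelled epithelial cells were present in every mCherry library (EPCAM at 35.2 to 129 CPM, KRT8 at 278 to 1180, KRT18 at 126 to 506, CDH1 at 28.7 to 93.8), PTPRC of blood cells had no count, PECAM1 of endothelium reached 1.42 CPM and COL1A1 of fibroblasts 1.58 to 13.4 CPM. CPM here is relative to the protein-coding counts of a library after TMM scaling, so the rRNAs are not part of its total. Matched RNA-Seq libraries were not analysed. A higher value can therefore come from more of the RNA in the cells as well as from more of it coming down. Fewer cells that hold the RNA and less of it per cell cannot be told apart.

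The ND messages together took several percent of all counted reads in every mCherry library, more in arsenite than in control on average in all 4 lines. Most of that rise was in MT-ND4. Its mean share of all counts went from 1.86 to 3.43% in WT and from 1.30 to 2.80% in S181E. In Y396E it went from 1.06 to 2.32% and in RQ from 1.48 to 2.71%. The mean shares of MT-ND4L and MT-ND5 also rose in all 4 lines. Those of MT-ND1, MT-ND3 and MT-ND6 fell, and that of MT-ND2 rose in Y396E alone. In WT cells the ND messages together made up 2.95, 3.31 and 4.72% of all counts in control replicates 1 to 3 and 4.57, 5.63 and 5.74% in arsenite. The WT ranges overlapped, since control replicate 3 lay above arsenite replicate 1. In S181E cells the shares were 2.46, 2.33 and 3.73% in control and 4.38, 4.05 and 4.75% in arsenite. In Y396E cells they were 2.13, 1.71 and 3.08% in control and 3.16, 4.09 and 3.94% in arsenite. In RQ cells they were 2.36, 2.29 and 3.69% in control and 4.16 and 4.18% in arsenite. In each of the 3 mutant lines every arsenite library lay above every control library. The means were 3.66 ± 0.93% (SD, n = 3) in WT control, 2.84 ± 0.77% in S181E, 2.30 ± 0.70% in Y396E and 2.78 ± 0.79% in RQ, against 5.31 ± 0.64%, 4.39 ± 0.35%, 3.73 ± 0.50% and 4.17 ± 0.013% (n = 2 for RQ) in arsenite.

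The parental libraries held a much smaller share and moved the other way. The ND messages made up 0.782% of the parental control counts (95% Wilson interval 0.767 to 0.798%) and 0.291% of the parental arsenite counts (0.288 to 0.293%). Both values lay below every mCherry library. These intervals cover counting error only, since PCR copies are not independent molecules, and with 1 library per treatment the difference between the parental libraries has no replicate check.

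**Figure D1:**
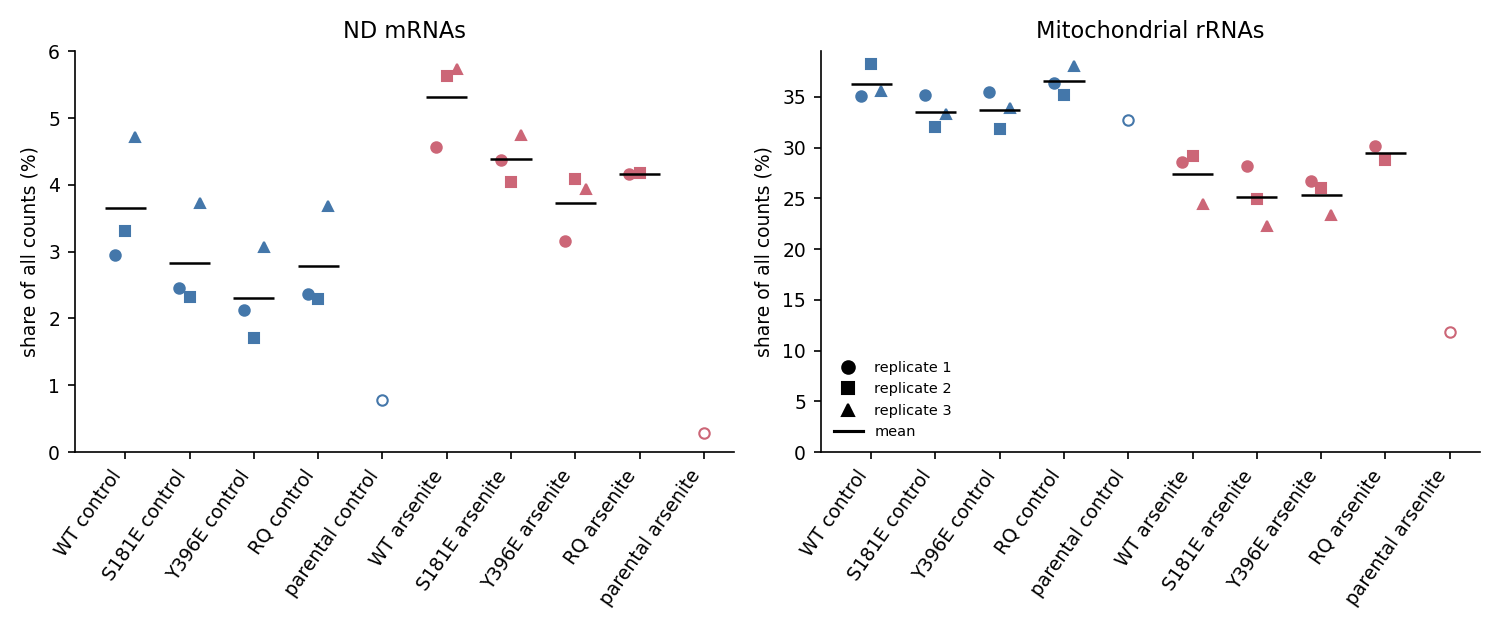
Share of all counts (%) taken by the 7 ND mRNAs (left) and by the 2 mitochondrial rRNAs (right), 1 point per library, with the replicate number as the marker and the group mean as a line. On average arsenite libraries of the mCherry lines sat higher than control libraries for the summed ND mRNAs, with an overlap in WT, and lower for the rRNAs. The parental ND shares of 0.782 and 0.291% lay below all mCherry libraries.

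The mitochondrial rRNAs, MT-RNR1 (chrM:648-1601) and MT-RNR2 (chrM:1671-3229), moved on average opposite to the sum of the ND messages in the mCherry lines. Their summed share of all counts was 31.8 to 38.2% over the control libraries of the 4 lines and 22.2 to 30.1% over the arsenite libraries, without overlap. The means were 36.3 ± 1.70% and 27.4 ± 2.60% in WT, 33.5 ± 1.58% and 25.1 ± 2.99% in S181E, 33.7 ± 1.87% and 25.4 ± 1.73% in Y396E, and 36.5 ± 1.43% and 29.5 ± 0.94% in RQ, control first. In the parental libraries the rRNAs took 32.7% in control and 11.8% in arsenite. The libraries were depleted of rRNA with riboPOOL probes, and what this did to the mitochondrial rRNAs was not tested.

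Set against the rRNAs, the ND messages stood at 8.42, 8.66 and 13.3 counts per 100 rRNA counts in WT control and at 16.0, 19.3 and 23.5 in WT arsenite, and these ranges did not overlap. The group means went from 10.1 ± 2.73 to 19.6 ± 3.78 in WT, from 8.48 ± 2.34 to 17.7 ± 3.18 in S181E, from 6.81 ± 1.99 to 14.8 ± 2.61 in Y396E and from 7.57 ± 1.85 to 14.2 ± 0.50 in RQ. In the parental libraries the ratio was 2.39 in control and 2.46 in arsenite. So the ratio of ND message to rRNA was nearly the same in both parental libraries, while in the mCherry lines the arsenite means were all higher than the control means.

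Among the 13 mRNAs of chrM, the ND messages held 26.7 to 38.9% of the counts in all mCherry libraries and 35.2 and 33.3% in the parental control and arsenite libraries. The share went from 33.5 ± 2.41% in WT control to 37.6 ± 1.68% in WT arsenite, from 31.9 ± 2.88 to 37.3 ± 1.03% in S181E, from 31.8 ± 3.17 to 35.2 ± 1.55% in Y396E and from 29.6 ± 3.83 to 34.8 ± 0.20% in RQ. The 6 other messages, for subunits of complexes III, IV and V, therefore took most of the mitochondrial mRNA counts throughout.

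Within the family, levels per length differed widely. In WT control, MT-ND4 was highest at 25452 ± 6829 CPM per kb, followed by MT-ND1 at 10302 ± 1642, MT-ND2 at 8781 ± 3820, MT-ND5 at 7305 ± 3292, MT-ND4L at 3724 ± 492, MT-ND3 at 996 ± 235 and MT-ND6 at 399.9 ± 107. The neighbours MT-ND1 and MT-ND2, and MT-ND2 and MT-ND5, overlapped in range, and the other neighbours did not. In WT arsenite the order of CPM per kb was MT-ND4 at 39532 ± 4737, MT-ND5 at 8590 ± 1061, MT-ND2 at 6459 ± 960, MT-ND1 at 6162 ± 566, MT-ND4L at 4979 ± 1136, MT-ND3 at 524 ± 99.2 and MT-ND6 at 323 ± 94.4. There the 4 messages from MT-ND5 to MT-ND4L overlapped with their neighbours. MT-ND4 was first and apart from the next message in all 8 groups, and MT-ND3 and MT-ND6 were the lowest pair in all 8.

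MT-ND4 encodes a proton-pumping subunit of the membrane arm and was the most counted of the members in every library. Its level was 27316, 32359 and 45542 CPM in WT control and 47079, 59435 and 56909 CPM in WT arsenite. In S181E it was 19366, 16631 and 26194 CPM in control and 41384, 34097 and 40714 CPM in arsenite. In Y396E it was 15530, 11116 and 20539 CPM in control and 26650, 33110 and 30564 CPM in arsenite. In every one of these lines the arsenite libraries of MT-ND4 lay above the control libraries without overlap. In RQ it was 21954, 20602 and 36503 CPM in control and 42748 and 40673 CPM in arsenite, again apart. The share of all genes with treatments apart in this way is not given, here or for the members below. Such separations only describe the members. The log2 fold change of MT-ND4 in arsenite was 0.62 (SE 0.23) in WT, 0.87 in S181E, 0.94 in Y396E and 0.66 in RQ.

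As a part of the ND counts, MT-ND4 took 51.9, 52.0 and 49.5% in WT control and 64.2, 64.5 and 64.6% in WT arsenite. The control values of the mutants ran from 42.4 to 54.3%, and all arsenite values of the mutants from 60.4 to 66.0%. Every arsenite library thus stood above every control library, whatever the line. In the parental libraries the part of MT-ND4 was 48.2% in control (95% Wilson interval 47.2 to 49.2%) and 56.0% in arsenite (55.6 to 56.4%), the first within the range of the mCherry control libraries and the second between both ranges.

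MT-ND1 encodes the subunit next to the ubiquinone site, and its message moved opposite to MT-ND4. It stood at 8043, 10609 and 10893 CPM in WT control and at 5372, 6452 and 5848 CPM in WT arsenite. In S181E it was 4467, 4596 and 5998 CPM in control and 4249, 3709 and 3667 CPM in arsenite. In RQ it was 5531, 5531 and 8081 CPM in control and 4279 and 4762 CPM in arsenite. In these 3 lines the arsenite range lay below the control range. In Y396E the ranges overlapped, with 3805, 3144 and 4611 CPM in control and 2390, 3489 and 3071 CPM in arsenite. The log2 fold change in arsenite was -0.75 (SE 0.17) in WT, -0.40 in S181E, -0.37 in Y396E and -0.50 in RQ.

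The part of MT-ND1 in the ND counts was 15.3, 17.0 and 11.8% in WT control and 7.33, 7.01 and 6.64% in WT arsenite, and in the mutants it was 9.70 to 14.6% in control and 5.79 to 7.51% in arsenite. The count of MT-ND4 over that of MT-ND1 put both movements in a single number. It was 3.40, 3.05 and 4.18 in WT control and 8.76, 9.21 and 9.73 in WT arsenite, with no overlap. The means went from 4.11 ± 0.42 to 10.0 ± 0.98 in S181E, from 4.02 ± 0.46 to 10.2 ± 0.86 in Y396E and from 4.07 ± 0.41 to 9.27 ± 1.02 in RQ. The ratio of the parental libraries lay between these levels, at 5.64 in control and 5.09 in arsenite, and it was not higher in arsenite.

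**Figure D2:**
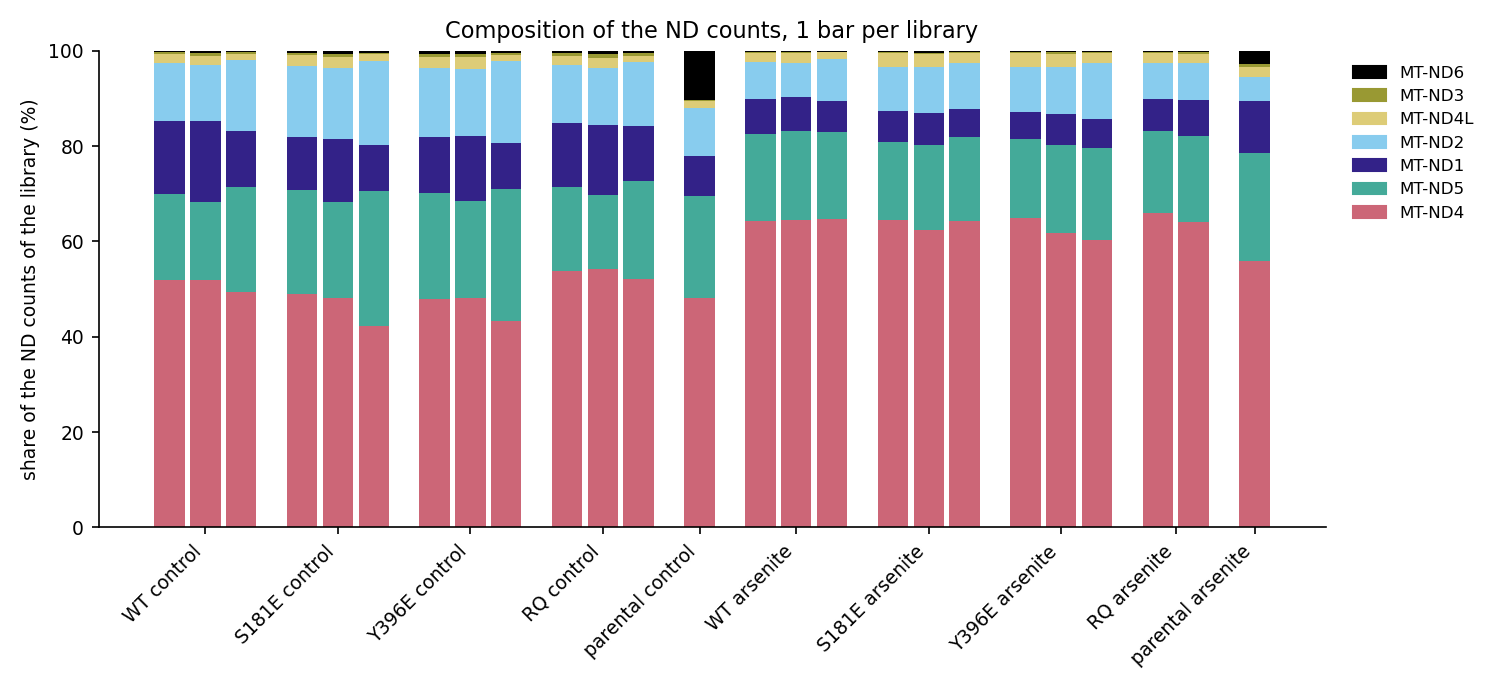
Composition of the ND counts of each library (%), 1 bar per library, with bars of a group side by side in replicate order. The MT-ND4 block grew from 42.4 to 54.3% in the control libraries of the 4 lines to 60.4 to 66.0% in arsenite, the MT-ND1 and MT-ND2 blocks shrank, and MT-ND6 is visible only in the parental bars.

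MT-ND4L, whose message is joined to that of MT-ND4, encodes a small membrane subunit. Its level was 942, 1222 and 1154 CPM in WT control and 1391, 1851 and 1194 CPM in WT arsenite, where the ranges overlapped. In S181E it was 903, 828 and 886 CPM in control and 1966, 1501 and 1337 CPM in arsenite. In Y396E it was 781, 552 and 686 CPM in control and 1214, 1533 and 1139 CPM in arsenite. MT-ND4L lay apart between treatments in both of these lines and also in RQ, with 809.6, 818 and 902 CPM in control and 1292 and 1196 CPM in arsenite. Its log2 fold change in arsenite was 0.41 (SE 0.16) in WT, 0.85 in S181E, 0.95 in Y396E and 0.56 in RQ. MT-ND4L and MT-ND4 thus had the same sign in each line, and were the members with the largest positive values.

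MT-ND3, a small subunit with a loop near the junction of both arms, was among the least counted members. It stood at 256, 416 and 361 CPM in WT control and 175, 218 and 150.2 CPM in WT arsenite. In S181E it was 162, 203 and 162 CPM in control and 129.6, 115 and 97.3 CPM in arsenite. In Y396E it was 147, 138 and 147 CPM in control and 84.7, 127 and 84.3 CPM in arsenite, and in RQ 259, 359 and 383 CPM in control and 193 and 221 CPM in arsenite. MT-ND3 was lower in arsenite without overlap in all 4 lines, with log2 fold changes of -0.94 (SE 0.18) in WT, -0.65 in S181E, -0.54 in Y396E and -0.69 in RQ. For MT-ND3, too, the share of all genes apart in the same way is not given.

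MT-ND2 and MT-ND5 encode the other proton-pumping subunits of the membrane arm, and their ranges overlapped between treatments in WT. MT-ND2 had 6449, 7280 and 13722 CPM in WT control and 5731, 6727 and 7731 CPM in WT arsenite. MT-ND5 had 9477, 10118 and 20115 CPM in WT control and 13443, 17192 and 16058 CPM in WT arsenite. For both messages the highest control library was replicate 3, by a wide margin. The log2 fold changes of MT-ND2 were -0.45 (SE 0.32) in WT, -0.37 in S181E, -0.09 in Y396E and -0.34 in RQ. Those of MT-ND5 were 0.22 (SE 0.36), -0.10, 0.08 and 0.30 in the same order, so that MT-ND5 had no common sign.

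MT-ND6, a membrane subunit and the lone mRNA of the opposite strand, was rare in all mCherry libraries. It had 145, 241 and 244 CPM in WT control and 127, 224 and 158 CPM in WT arsenite, which overlapped. Over the mutants it ran from 161 to 346 CPM in control and from 112 to 229 CPM in arsenite. Its log2 fold change in arsenite was -0.32 (SE 0.26) in WT, -0.34 in S181E, -0.62 in Y396E and -0.78 in RQ. MT-ND6 made up 0.172 to 0.768% of the ND counts of an mCherry library, against 10.2% of the parental control (991 counts, 95% Wilson interval 9.65 to 10.9%) and 2.68% of the parental arsenite library (1475 counts, 2.55 to 2.82%).

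The median log2 fold change over the 7 members was -0.32 in WT, -0.34 in S181E, -0.09 in Y396E and -0.34 in RQ, where the medians of all genes lay between -0.02 and 0.03. Without control replicate 3 of the line the median became 0.05 in S181E, 0.34 in Y396E and 0.07 in RQ, so the sign of the median of the family in the mutants rests on that library. The 6 other chrM mRNAs, which were tested, had log2 fold changes from -0.30 to 0.57. A gene was called where it changed by more than 20% with an adjusted p under 0.05 (edgeR's quasi-likelihood test, adjusted by Benjamini-Hochberg over all 8734 genes). Of the 6, 0 were called lower and 1 higher in WT, beside 31.8% of all genes called lower and 35.4% called higher. In S181E 0 and 0 were called, beside 34.6 and 33.3% of all genes. In Y396E it was 0 and 2, beside 33.8 and 31.3%, and in RQ 0 and 1, beside 32.3 and 32.4%.

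**Figure D3:**
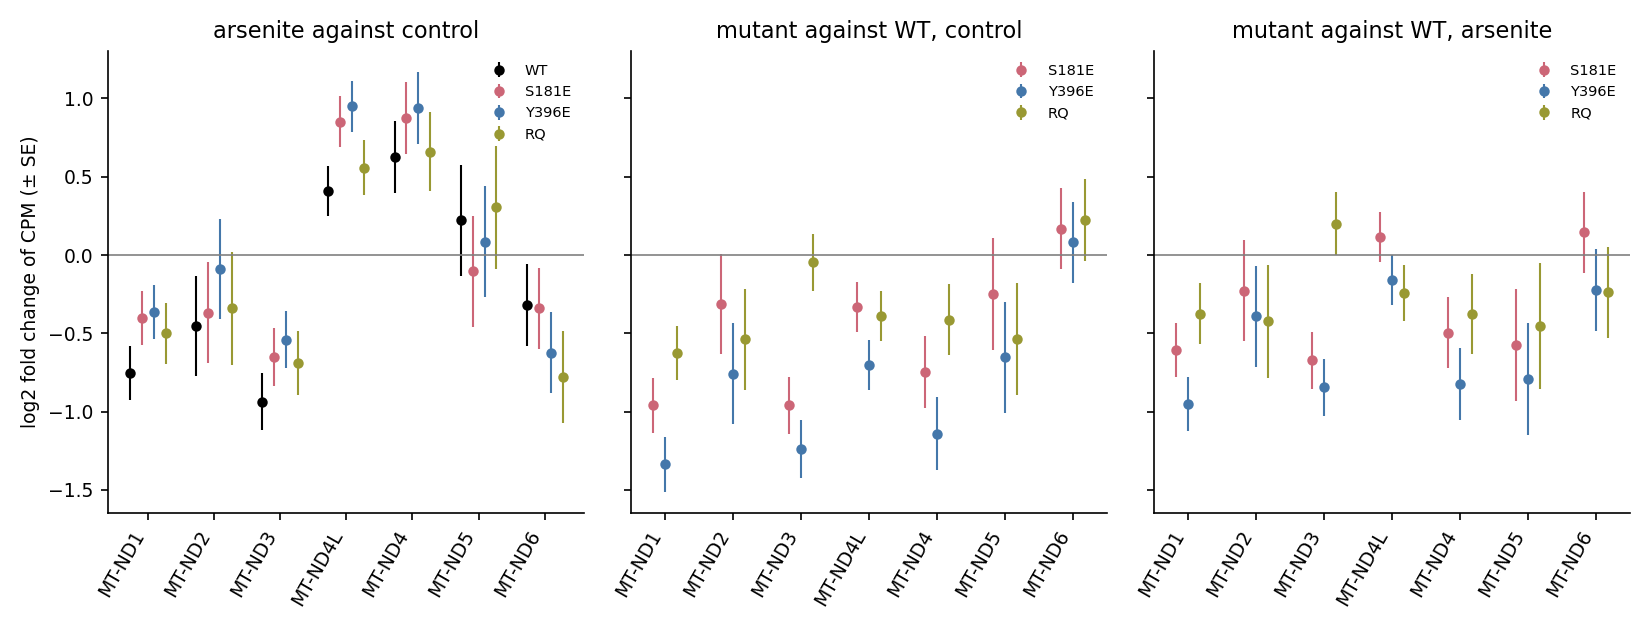
Log2 fold change of CPM with its standard error for each ND mRNA, for arsenite against control in each line (left), and for each mutant against WT in control (middle) and in arsenite (right). MT-ND4L and MT-ND4 lay above 0 and MT-ND1 and MT-ND3 below 0 in arsenite in all 4 lines, and in the phosphomimetic mutants MT-ND1, MT-ND3 and MT-ND4 lay below 0 against WT in both treatments.

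Against WT, the mutants had lower levels of most ND messages, most of all Y396E. The 6 mutant comparisons share their WT libraries, 3 in each treatment, so they are not independent of each other. In control, the summed ND level was 52628, 62246 and 92030 CPM in WT, 39587, 34605 and 61830 in S181E, 32452, 23049 and 47333 in Y396E, and 40796, 37975 and 69985 in RQ. In these sums the Y396E range lay below the WT range, and S181E and RQ overlapped with WT. In arsenite it was 73318, 92098 and 88049 CPM in WT, 64237, 54623 and 63356 in S181E, 41091, 53627 and 50613 in Y396E, and 64782 and 63424 in RQ. All 3 mutants lay below WT in arsenite without overlap in CPM. As shares of all counts, Y396E overlapped with WT in control, with 3.08% in Y396E replicate 3 and 2.95% in WT replicate 1. Of the protein-coding counts these 2 libraries held 4.76 and 4.66%. In arsenite S181E overlapped with WT in the share of all counts, with 4.75% in S181E replicate 3 and 4.57% in WT replicate 1. Y396E and RQ stayed below WT there.

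The single messages differed in how far they were lower. In S181E control the log2 fold changes against WT were -0.96 for MT-ND1, -0.96 for MT-ND3, -0.75 for MT-ND4, -0.33 for MT-ND4L, -0.31 for MT-ND2, -0.25 for MT-ND5 and 0.17 for MT-ND6. MT-ND1, MT-ND3, MT-ND4L and MT-ND4 lay below WT without overlap in CPM. In Y396E control they were -1.34 for MT-ND1, -1.24 for MT-ND3, -1.14 for MT-ND4, -0.76 for MT-ND2, -0.70 for MT-ND4L, -0.65 for MT-ND5 and 0.08 for MT-ND6. The same 4 messages did not overlap with WT there. In RQ control the values ran from -0.63 for MT-ND1 to 0.22 for MT-ND6, with -0.05 for MT-ND3. MT-ND4L alone did not overlap with WT. The share of all genes that lay apart from WT in the same way is not given here, so these separations only describe the members.

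In arsenite, S181E gave -0.67 for MT-ND3, -0.61 for MT-ND1, -0.58 for MT-ND5, -0.50 for MT-ND4, -0.23 for MT-ND2, 0.11 for MT-ND4L and 0.15 for MT-ND6. Y396E gave -0.95 for MT-ND1, -0.85 for MT-ND3, -0.82 for MT-ND4, -0.79 for MT-ND5, -0.39 for MT-ND2, -0.22 for MT-ND6 and -0.16 for MT-ND4L. In both lines MT-ND1, MT-ND3, MT-ND4 and MT-ND5 lay below WT without overlap in CPM. In RQ arsenite the values ran from -0.45 for MT-ND5 to 0.20 for MT-ND3. There MT-ND1, MT-ND2, MT-ND4 and MT-ND5 lay below WT without overlap in 2 libraries. For arsenite, too, the share of all genes that lay apart from WT in the same way is not given.

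The medians over the 7 members were -0.33 in S181E control, -0.76 in Y396E control, -0.41 in RQ control, -0.50 in S181E arsenite, -0.79 in Y396E arsenite and -0.37 in RQ arsenite, beside medians of all genes between -0.01 and 0.05. The 6 other chrM mRNAs had values below 0 in every comparison, and none of them was called higher. In S181E control they ran from -0.71 to -0.12 with 3 called lower, beside 8.0% of all genes called lower and 12.8% called higher. In Y396E control they ran from -1.07 to -0.62 with 6 called lower, beside 12.7 and 16.2% of all genes. In RQ control they ran from -0.39 to -0.16 with 0 called, beside 2.83 and 3.51%. In S181E arsenite they ran from -0.79 to -0.10 with 2 called lower, beside 5.34 and 2.20%, and with the replicate number as a block 1105 genes in place of 658 were called over the whole table. In Y396E arsenite they ran from -0.95 to -0.38 with 3 called lower, beside 19.4 and 13.1%, and in RQ arsenite from -0.26 to -0.03 with 0 called, beside 0.218 and 0.286%. Members with values above 0 were MT-ND6 in the 3 control comparisons and in S181E arsenite, MT-ND3 in RQ arsenite and MT-ND4L in S181E arsenite. Total counts in place of TMM raised the median of all genes by 0.16 in S181E control, 0.27 in Y396E control, 0.16 in S181E arsenite and 0.22 in Y396E arsenite. It moved the share of calls that were higher from 61.6 to 86.5%, from 55.9 to 88.4%, from 29.2 to 75.5% and from 40.4 to 75.3% in the same order, and from 55.4 to 82.2% and 56.8 to 76.7% in RQ control and arsenite.

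Compared with the parental libraries, all members but MT-ND6 were several times higher in the mCherry libraries. The fold is the mean CPM of a group over that of the parental library given the same treatment. In WT control it was 17.6 ± 2.81 for MT-ND1, 14.1 ± 6.12 for MT-ND2, 13.8 ± 3.25 for MT-ND3, 12.0 ± 1.58 for MT-ND4L, 11.1 ± 2.99 for MT-ND4 and 9.54 ± 4.30 for MT-ND5 (SD over 3 libraries). The means of these 6 messages were at least 4-fold above the parental library in all 8 groups with TMM scaling. With total counts in place of TMM the fold of the summed ND counts in control fell to 4.52 in WT, 3.35 in S181E, 2.73 in Y396E and 3.46 in RQ. With TMM a fold of at least 4 held for 49.0, 49.2, 48.5 and 48.8% of all genes in WT, S181E, Y396E and RQ control, and for 9.18, 8.24, 6.14 and 8.36% in arsenite. The parental libraries also differed in depth, and 3572 of the 8734 genes had no count in the parental control library and 34 in the parental arsenite library. A gene without a parental count passed at any level above 0. Such genes made up most of the control shares, as 4276 genes passed in WT control. Among genes with a parental count the median fold in WT control was 1.04.

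In WT arsenite the fold was 57.3 ± 8.51 for MT-ND2, 40.8 ± 4.89 for MT-ND4, 29.1 ± 3.59 for MT-ND5, 27.8 ± 6.34 for MT-ND4L, 22.5 ± 2.06 for MT-ND1 and 10.9 ± 2.06 for MT-ND3. MT-ND2 led in all 4 lines in arsenite, with 49.0 ± 3.98 in S181E, 42.7 ± 9.17 in Y396E and 42.4 ± 0.04 in RQ. Its parental arsenite level was low, at 117 CPM against 651 CPM in the parental control library. For the sum of the family the fold was 10.6 ± 3.14 in WT, 6.94 ± 2.22 in S181E, 5.25 ± 1.87 in Y396E and 7.59 ± 2.71 in RQ control, and 35.4 ± 4.15, 25.5 ± 2.23, 20.3 ± 2.75 and 26.9 ± 0.40 in arsenite. The 6 other chrM mRNAs together had similar folds, 11.2 ± 2.07 in WT control and 29.3 in WT arsenite, while the rRNAs had 2.49 ± 0.18 and 4.51 ± 0.57. The fold of the family rests on 1 parental library per treatment, and against the parental library of the other treatment it was 28.9 in WT control and 12.9 in WT arsenite.

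MT-ND6 was lower than in the parental library in control and higher in arsenite. Its fold was 0.31 ± 0.08 in WT, 0.35 ± 0.05 in S181E, 0.33 ± 0.06 in Y396E and 0.37 ± 0.14 in RQ control, and 2.66 ± 0.78, 2.94 ± 0.57, 2.22 ± 0.63 and 2.24 ± 0.69 in arsenite. The turn lay in the parental libraries, where MT-ND6 stood at 669 CPM in control and at 63.8 CPM in arsenite, while its mCherry levels differed far less. Set against the parental library of the other treatment the fold was 3.29 to 3.84 in control and 0.21 to 0.28 in arsenite. The direction for MT-ND6 therefore depends on which parental library is used.

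**Figure D4:**
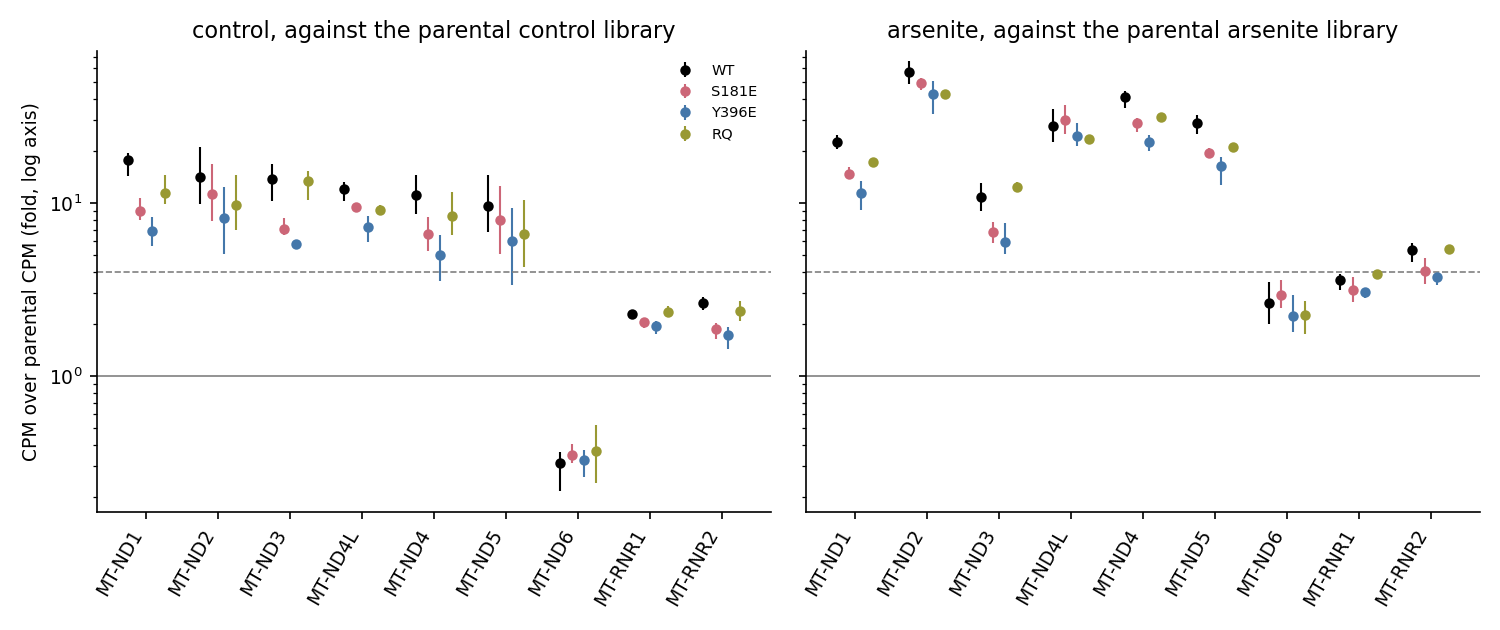
CPM over that of the parental library given the same treatment (fold, log axis) for the ND mRNAs and both mitochondrial rRNAs, in control (left) and arsenite (right). Points are group means, bars run from the lowest to the highest library, the solid line marks equality and the dashed line 4-fold. The means of all members but MT-ND6 lay above the dashed line in all groups, single Y396E control libraries of MT-ND4 and MT-ND5 lay below it, and MT-ND6 lay below equality in control.

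Control replicate 3 stood apart from the other control libraries in each of the 4 lines. It had the highest summed ND share, the highest parts of MT-ND2 and MT-ND5 in the ND counts, and the lowest parts of MT-ND1, MT-ND3, MT-ND4L and MT-ND4, in 4 of 4 lines. In WT the part of MT-ND5 was 18.0, 16.2 and 21.9% over replicates 1 to 3, and in S181E 21.8, 20.2 and 28.2%. Among the 3 arsenite groups with 3 libraries, replicate 3 had the highest part of MT-ND2 and the lowest parts of MT-ND3 and MT-ND4L in 3 of 3. The labels name no batch for the replicate numbers. Leaving replicate 3 out moved the ND share of the control groups down, and MT-ND4 above and MT-ND3 below control in arsenite held in replicates 1 and 2 alone in each line.

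Over the 23 mCherry libraries, the summed ND level varied around its group means together with other chrM mRNAs. Pearson's r of these deviations was 0.996 for MT-ATP6, 0.962 for MT-CYB, 0.948 for MT-CO3, 0.916 for MT-CO1, 0.834 for MT-ATP8 and 0.731 for MT-CO2. Among the members it was 0.993 for MT-ND4, 0.988 for MT-ND5, 0.979 for MT-ND2 and 0.894 for MT-ND1, each of which is part of the sum, and lower for MT-ND6 (0.595), MT-ND4L (0.410) and MT-ND3 (0.259). The nuclear genes most alike were PLBD2 (0.93), ZNF275 (0.92), PRDM2 (0.91), ELK3 (0.91) and ZBTB2 (0.90), where the median of all 8734 genes was 0.0709 and the 95th percentile 0.748. MT-CO2, MT-ND6, MT-ND4L and MT-ND3 lay below that percentile. The points share libraries, so replicate 3 weighs in each of these values.

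Copies of ND genes in the nuclear genome could take or give reads. The annotation lists 217 of them under MTND names, of which 53 had a count, and 121864 of their 123165 counts fell on MTND2P28. That pseudogene lies at chr1:629640-630683 in hg38 and is 98.4% identical to MT-ND2 without gaps. Its counts made up 2.98 to 4.81% of those of MT-ND2 and MTND2P28 together in the mCherry libraries, 9.91% in the parental control and 1.99% in the parental arsenite library. Reads that map to both were dropped, so the value of MT-ND2 is uncertain by an amount these counts do not give. All copies other than MTND2P28 together had 1301 counts over the 25 libraries.

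The nuclear genes of complex I were followed as a list of textbook subunits, of which 26 of 37 were tested. In WT cells in arsenite 5 subunit mRNAs rose and 2 fell, with a median log2 fold change of 0.09 over the 26 and 0.03 over all genes. Over all genes 35.4% rose and 31.8% fell in the same comparison. NDUFS3 rose by 1.62 (log2, SE 0.44, adjusted p = 0.00234) and NDUFV1, which holds the NADH site, by 1.18 (SE 0.25, adjusted p = 0.000210), both in edgeR's quasi-likelihood test. NDUFC1 fell by 0.68 (SE 0.16, adjusted p = 0.000824), and NDUFB2 fell by 0.51 (SE 0.18, adjusted p = 0.0133). The call for NDUFB2 was lost without WT control replicate 1 and with all biotypes in the fit. NDUFS3 and NDUFV1 belong to the peripheral arm, while NDUFC1 and NDUFB2 are accessory subunits of the membrane arm. Whether the calls of the list divided by arm was not tested, in WT or in the other lines.

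Of 17 assembly factors 11 were tested, and in WT arsenite 4 rose and 3 fell, beside 35.4 and 31.8% of all genes. NDUFAF7, a mitochondrial methyltransferase, rose by 1.45 (adjusted p = 0.000130), ACAD9 by 1.33 (adjusted p = 0.000176) and FOXRED1 by 0.93 (adjusted p = 0.00230). NDUFAF4 fell by 0.64 (adjusted p = 0.00553), TMEM126B fell by 0.46 (adjusted p = 0.00287) and COA1 fell by 0.38 (adjusted p = 0.00120). The call for NDUFAF4 was lost without WT control replicate 2, and that for COA1 with all biotypes in the fit. The median over the list was 0.00.

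Nuclear genes for the synthesis, processing and stability of mitochondrial RNA were mostly called higher in WT arsenite, 11 of the 17 tested (of 21 listed), with 2 called lower and a median log2 fold change of 0.77, beside 35.4% of all genes called higher and 31.8% called lower. ELAC2, which cuts the 3′ ends of mitochondrial tRNAs from the precursor, rose by 1.58 (SE 0.13, adjusted p = 3.79e-10). LRPPRC, which stabilises mitochondrial mRNAs, rose by 1.57 (SE 0.10, adjusted p = 1.05e-11), and POLRMT, the mitochondrial RNA polymerase, by 1.54 (SE 0.15, adjusted p = 4.51e-09). SLIRP, the partner of LRPPRC, fell by 0.83 (SE 0.31, adjusted p = 0.0218), and TFAM, which packages mitochondrial DNA, fell by 0.62 (SE 0.13, adjusted p = 0.000197). The call for SLIRP was lost without WT control replicate 2 or WT arsenite replicate 2, and in a fit of only the 2 groups compared. These are levels of mRNA that came down with IGF2BP1, as for the ND messages.

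Between the mutants and WT, 0 to 4 of the 26 subunits were called. In S181E control 3 subunits fell and 1 rose, beside 8.0 and 12.8% of all genes, namely NDUFB9, which fell by 0.77 (adjusted p = 0.00203), NDUFS8 (fell by 0.83, adjusted p = 0.0149), NDUFC1 (fell by 0.53, adjusted p = 0.0237) and NDUFS1 (rose by 0.39, adjusted p = 0.0482). Of these, NDUFB9 alone was called under every alternative setting run and without any single replicate. Without S181E control replicate 3 or WT control replicate 2 the other 3 calls were lost, and without replicate 1 of either group those for NDUFC1 and NDUFS1. In Y396E control 2 fell and 0 rose, beside 12.7 and 16.2% of all genes, where NDUFB9 fell by 0.60 (adjusted p = 0.00882) and NDUFA12 by 0.55 (adjusted p = 0.0211). Both calls were lost without WT control replicate 2 and with total counts. That for NDUFA12 was also lost without Y396E control replicate 1 or 2 and in a fit of only the 2 groups compared. In S181E arsenite, where 5.34% of all genes fell and 2.20% rose, NDUFB9 alone was called and fell by 0.55 (adjusted p = 0.0376). This call was lost whenever any single replicate was left out, with total counts and with all biotypes in the fit. In Y396E arsenite, where 19.4% of all genes fell and 13.1% rose, NDUFA12 fell by 0.50 (adjusted p = 0.0263) and NDUFAB1 rose by 0.69 (adjusted p = 0.0442). The latter was called in no fit that left out a replicate, and the call for NDUFA12 was lost without replicate 1 or 3 of WT arsenite or replicate 1 or 2 of Y396E arsenite. Total counts also lost the call for NDUFA12, and edgeR's filterByExpr as the filter that for NDUFAB1. In RQ no subunit was called by edgeR in either treatment, with 5 in control and 3 in arsenite at an unadjusted p under 0.05 and 0 by DESeq2 in both.

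Among assembly factors TMEM126B, which serves the membrane arm, was lower in Y396E than in WT in both treatments, by log2 values of -0.69 in control (adjusted p = 0.000368) and -0.63 in arsenite (adjusted p = 0.000726), and neither call was lost in any alternative. TMEM70 also fell in Y396E control, by 0.81 (adjusted p = 0.00449), ACAD9 rose there by 0.85 (adjusted p = 0.0226), and COA1 fell in Y396E arsenite by 0.35 (adjusted p = 0.00666). The call for ACAD9 was lost without WT control replicate 3 or Y396E control replicate 1 or 2, and that for COA1 without WT arsenite replicate 1. A fit of only the 2 groups compared lost the calls for TMEM70 and ACAD9. Replicates 1 and 2 alone lost those for TMEM70 and COA1, and total counts that for COA1. No assembly factor was called by edgeR in S181E control, S181E arsenite, RQ control or RQ arsenite, where 1, 2, 2 and 2 had an unadjusted p under 0.05 and DESeq2 called 1, 2, 0 and 1.

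Among the factors for mitochondrial RNA, TBRG4, a FASTK-family protein that acts on mitochondrial mRNA, rose in Y396E by 0.69 in control (adjusted p = 0.00232) and by 0.62 in arsenite (adjusted p = 0.00384). The list had 5 genes called higher and 0 lower in Y396E control, beside 16.2 and 12.7% of all genes, with TFB2M at 0.86 (adjusted p = 0.0277) and FASTKD5 at 0.60 (adjusted p = 0.00534), and 4 higher and 0 lower in Y396E arsenite, beside 13.1 and 19.4%, with HSD17B10 at 0.69 (adjusted p = 0.0121) and POLRMT at 0.53 (adjusted p = 0.00647). The call for TFB2M was lost without WT control replicate 1 or 3 or Y396E control replicate 1 or 2, and that for HSD17B10 without WT arsenite replicate 3. The calls for FASTKD5 and TFB2M were also lost in a fit of only the 2 groups compared and with replicates 1 and 2 alone. S181E had GRSF1, an RNA granule protein of mitochondria, at 0.45 in control (adjusted p = 0.0117) as its single call. That call was lost without S181E control replicate 2 or WT control replicate 1, and in a fit of only the 2 groups compared. No gene of the list was called by edgeR in S181E arsenite, RQ control or RQ arsenite, where 1, 5 and 0 had an unadjusted p under 0.05 and DESeq2 called 0, 1 and 0. The medians over the list were 0.28 in Y396E control and 0.15 in Y396E arsenite, beside 0.05 and 0.01 for all genes, while the ND messages lay at -0.76 and -0.79 in the same comparisons.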

How the data were processed

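RIP-seq of mCherry-IGF2BP1 gave 23 libraries of 4 HCT116 lines, and parental cells gave 2. The values the authors deposited are raw read counts per gene, 1 file per library. Per the file headers and the submitters' processing notes, reads were aligned to hg38 with STAR 2.7.11b and counted on exons by strand with featureCounts (Subread 2.0.6) and GENCODE release 46, which by default drops multi-mapping reads and reads shared by several genes. Gene names came from GENCODE release 44 by Ensembl identifier (61547 with their version, 62541 with any version, 545 not found). RNA-Seq libraries were not analysed here.

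CPM was computed with TMM factors over the protein-coding counts of all 25 libraries, so the rRNAs are not part of the total. Following the methods of the study, a protein-coding gene was kept if its CPM exceeded 10 in a share of 0.5 or more of the mCherry libraries, and these 23 libraries were fitted by group (8 groups, no covariates) with edgeR 4.0.16 (quasi-likelihood test, Benjamini-Hochberg adjustment over 8734 genes) in R 4.3.3. A call needed a change of more than 20% and an adjusted p under 0.05. Limma 3.58.1 and DESeq2 1.42.0 served the fits and the alternatives, and Python 3.11.15 with pandas 2.3.3 and matplotlib 3.10.9 the tables and plots. The procedure was tested on simulated counts with independent libraries, 1 dispersion for all genes and no replicate effect. That simulation cannot show how calls behave under the replicate differences seen here. No pair of replicates held identical counts. The depth of each library limits the precision, most of all in the parental control library with 1238013 counts.

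The members and the gene lists were chosen with earlier results of these data known. Named genes were the members, both mitochondrial rRNAs, the up to 3 called genes of each list with the largest change in each direction, the 5 nuclear genes most correlated with the summed ND level, and the MTND pseudogene with the highest count. An item that this rule names is not reported here. PECAM1, COL1A1, PTPRC and the epithelial markers served to check the cells. The alternatives covered the scaling, the genes and groups in the fit, DESeq2, the replicate block, the denominator of the shares, the parental library and leaving out each replicate. Replicate numbers are shared between groups, and the correlation of deviations from the group means was 0.28, 0.29 and 0.39 for the same numbers in S181E and WT arsenite. The numbers were therefore taken to pair these libraries. In RQ and WT control the values were 0.09, 0.34 and 0.30, and in S181E and WT control -0.02, 0.22 and 0.30, so the line drawn between comparisons is not sharp. The values printed come from the fit without the block. For S181E against WT in arsenite, too, the printed standard errors, p-values and calls leave this pairing out. The blocked count is given where it differs by over 1.5 times. The correlation in S181E and WT arsenite is the source of the pairing, since neither labels nor methods name a shared batch.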

Additional observations from a re-analysis of the deposited data

How the results depend on the processing

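Under other settings 554 member values moved by less than their replicate spread and 6 moved by more, and none of the 406 values with a replicate left out moved by more. Several members with small values changed sign with 1 replicate left out, such as MT-ND2 in Y396E (-0.34 to 0.34) and MT-ND5 in S181E (-0.35 to 0.40) for arsenite against control. MT-ND6 crossed 0 in all 6 comparisons with WT. With replicates 1 and 2 alone, a setting chosen after seeing the data, the median over the family was 0.0015 in S181E and 0.19 in Y396E for arsenite against control. Total counts gave -0.34 in place of -0.50 for S181E against WT in arsenite. With 1 replicate left out it ran from -0.52 to -0.04 in WT, -0.41 to 0.052 in S181E, -0.34 to 0.34 in Y396E and -0.53 to 0.07 in RQ for arsenite against control. Against WT it ran from -0.76 to -0.29 in S181E control, -1.19 to -0.59 in Y396E control, -0.72 to -0.13 in RQ control, -0.59 to -0.41 in S181E arsenite, -0.89 to -0.64 in Y396E arsenite and -0.43 to -0.30 in RQ arsenite. Where an RQ arsenite replicate was left out, the lone library was assumed to vary like the other groups.

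The ND share of counts depended on the denominator. Of the protein-coding counts it was 5.89% in WT, 4.37% in S181E, 3.57% in Y396E and 4.51% in RQ control, and 7.43, 5.96, 5.07 and 6.0% in arsenite. Of the counts without the mitochondrial rRNAs it was 5.74, 4.27, 3.49 and 4.40% in control and 7.31, 5.87, 4.99 and 5.91% in arsenite, in the same order of lines. The fold of the ND sum over the parental library was smaller with total counts, at 4.52, 3.35, 2.73 and 3.46 in control and 21.5, 17.2, 14.7 and 17.4 in arsenite. From shares of all counts it was 4.68, 3.63, 2.95 and 3.56 in control and 18.3, 15.1, 12.8 and 14.3 in arsenite. Against the parental library of the other treatment, chosen after seeing the data, it was 28.9, 19.0, 14.4 and 20.8 in control and 12.9, 9.30, 7.41 and 9.81 in arsenite. DESeq2 size factors gave 25.4 in RQ arsenite. With 1 replicate left out it ran from 8.79 to 11.8 in WT, 5.68 to 7.76 in S181E, 4.25 to 6.11 in Y396E and 6.03 to 8.48 in RQ control, and from 33.9 to 37.8, 24.8 to 26.8, 19.2 to 21.9 and 26.6 to 27.2 in arsenite.

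Of the nuclear complex I subunits, 7 were called in WT arsenite, 4 in S181E control, 2 in Y396E control, 0 in RQ control, 1 in S181E arsenite, 2 in Y396E arsenite and 0 in RQ arsenite. Total counts gave 4 in Y396E control, 0 in S181E arsenite and 9 in Y396E arsenite, all biotypes 0 in S181E arsenite, and filterByExpr 1 in Y396E arsenite. A fit of only the 2 groups compared gave 1 in S181E control, 1 in Y396E control, 2 in S181E arsenite, 15 in Y396E arsenite and 7 in RQ arsenite. Replicates 1 and 2 alone gave 11 in WT arsenite, 1 in RQ control and 7 in Y396E arsenite. With 1 replicate left out the counts ran from 5 to 10 in WT arsenite, 1 to 5 in S181E control, 1 to 3 in Y396E control, 0 to 2 in RQ control, 0 to 0 in S181E arsenite and 0 to 1 in Y396E arsenite. The cause of these shifts was not tested.

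With the replicate block, 11 subunits were called in WT arsenite, 4 in Y396E control, 1 in RQ control and 9 in Y396E arsenite, and 1081 genes in place of 554 in RQ control and 154 in place of 44 in RQ arsenite. Correlations of same-numbered libraries outside the S181E and WT arsenite pair ran from -0.12 to 0.45. There the numbers were not taken as pairs, although single values were as high as in that pair.

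Over all genes, total counts gave 2812 calls in place of 1818 in S181E control, 4157 in place of 2523 in Y396E control, 931 in place of 554 in RQ control and 1152 in place of 658 in S181E arsenite. Fits of only the 2 groups gave 401, 1224 and 7 in S181E, Y396E and RQ control and 1882, 4429 and 1022 in arsenite, where the main counts were 2838 in Y396E and 44 in RQ. DESeq2's test gave 116 in RQ arsenite, 76 lower and 40 higher, against 19 and 25. In RQ control, DESeq2 size factors gave 313 lower and 234 higher against 247 and 307. All biotypes raised the median of all genes in WT arsenite by 0.13. Depth limits the parental control library most, and the single parental library per treatment leaves every fold over it without a replicate check.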
